A study of Canis lupus familiaris with 6 samples.

Results

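Protein S (PROS1), GAS6 and the 3 TAM receptor kinases TYRO3, AXL and MERTK were examined in CPEK cells, a canine epidermal keratinocyte line, after exposure to cold atmospheric microwave plasma (CAMP). The 5 genes were taken by symbol from a table of 35993 genes, and all 5 were among the 14708 genes tested. The group was chosen from measured values, since PROS1 had been picked earlier for its difference between these same libraries. Its difference is therefore given as a description without a test. Its 4 partners were added by name, although the fold change of AXL had also been part of an earlier list. Wild-type cells of 1 line were treated directly with CAMP for 30 s (dCAMP, 3 libraries) or with the gas without plasma (3 libraries), in DMEM with serum and antibiotics. The medium was replaced 15 min later in both groups, and RNA was collected 24 h after that. The labels do not say whether the 3 libraries of a group came from separate cultures, so p-values measure only the spread between these libraries, which may be technical.

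Protein S and GAS6 are secreted proteins with a Gla domain, in which glutamate residues are carboxylated by a vitamin K-dependent enzyme. The Gla domain binds phosphatidylserine on apoptotic cells and activated membranes, and the other end of the protein binds a TAM receptor on a neighbouring cell. TAM receptors are receptor tyrosine kinases known for the clearance of apoptotic cells, the damping of innate immune signalling and, for AXL, cell survival and migration. GAS6 is a ligand of all 3 receptors, protein S mainly of TYRO3 and MERTK. Protein S is also a plasma anticoagulant, a cofactor of activated protein C and of TFPI.

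Each library held 43084921 to 54082634 counts, of which the 5 genes together took 2224 to 3183. The gas libraries stood apart from one another: the first principal component of all genes tested held 71.2% of the variance and ran from -94.1 for gas 1 through -23 for gas 2 to 21.7 for gas 3, with the dCAMP libraries at 28.6 to 33.6. Results are therefore also given without single libraries. All 10 keratinocyte markers had counts in every library, with summed levels of 19900 to 25300 FPKM in the gas control and 18400 to 19600 FPKM in dCAMP-treated cells. FPKM are read numbers scaled to transcript length and to the mapped reads of a library. The 8 macrophage or Langerhans cell markers summed to 1.24 to 1.8 FPKM in gas and 1.43 to 2.15 in dCAMP, with PTPRC, CSF1R, CD163, CD207 and AIF1 at 0 counts. The 8 fibroblast markers summed to 1.47 to 1.56 and 1.35 to 1.52 FPKM (PDGFRB, DCN and LUM at 0), and the 5 endothelial markers to 2.01 to 2.39 and 2.53 to 3.13 (PECAM1 at 0). The 5 melanocyte markers summed to 0.198 to 0.934 and 0.243 to 0.904 (TYR and DCT at 0), and the 4 hepatocyte markers stayed at or under 0.106 FPKM in every library (ALB and F9 at 0). Counts in every library were found for 3 of the 8 macrophage or Langerhans cell markers and 5 of the 8 fibroblast markers. The same held for 3 of the 5 endothelial, 1 of the 5 melanocyte and 0 of the 4 hepatocyte markers. Mean FPKM over the 6 libraries was 1.43 for VWF, 0.994 for KDR, 0.76 for ITGAM, 0.615 for COL3A1, 0.551 for THY1 and 0.541 for CD68. These means exceeded that of PROS1 (0.484 FPKM). The part of other cell types in the results below was not tested.

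Levels of the 5 genes were first compared per transcript length, as FPKM. TYRO3 mRNA was the most abundant, PROS1, AXL, MERTK and GAS6 were all under 1 FPKM, and the ligand PROS1 took another place in the order in each group. TYRO3 had 11.4, 10.6 and 7.22 FPKM for gas 1, 2 and 3 against 9.33, 8.44 and 8.36 FPKM for dCAMP 1, 2 and 3. Gas 3 was the lowest of the 6 libraries and gas 1 the highest, so the groups overlapped. The gene's mean over the 6 libraries exceeded that of 56.8% of the genes tested.

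AXL, the next receptor, had 0.424, 0.502 and 0.481 FPKM for gas against 0.347, 0.445 and 0.468 FPKM for dCAMP. MERTK, the receptor best known from macrophages and the retinal pigment epithelium, had 0.3, 0.177 and 0.22 FPKM in gas and 0.268, 0.243 and 0.113 FPKM in dCAMP. Both receptors overlapped between the groups, and dCAMP 3 was the lowest library for MERTK. On the same scale, the means of AXL and MERTK exceeded those of 15.7% and 9.18% of the genes tested.

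The ligand PROS1 had 0.202, 0.324 and 0.339 FPKM for gas 1, 2 and 3 against 0.71, 0.596 and 0.732 FPKM for dCAMP. The lowest dCAMP library lay above the highest gas library. GAS6 had 0.281, 0.142 and 0.185 FPKM in gas and 0.279, 0.19 and 0.269 FPKM in dCAMP, and its highest level over the 6 libraries was that of gas 1. The means of PROS1 and GAS6 exceeded those of 16.4% and 9.38% of the genes tested.

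**Figure D1:**
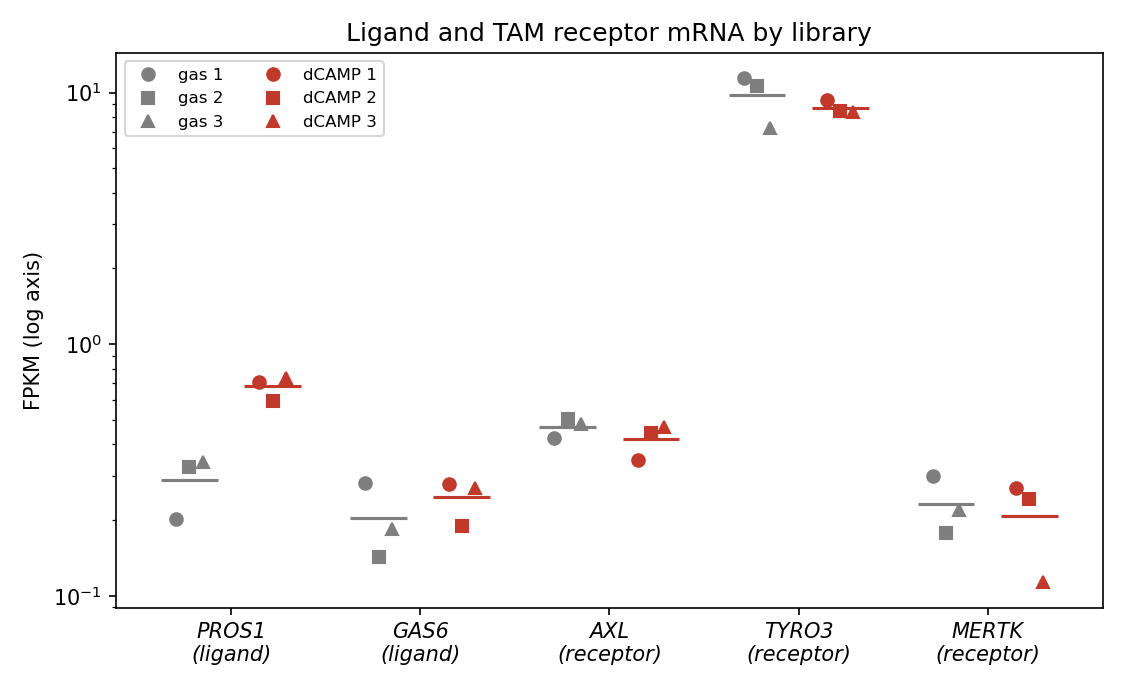
FPKM (log axis) of the 2 ligands and 3 TAM receptors in each of the 6 libraries, gas in grey and dCAMP in red, with the symbol marking the replicate number and the line the group mean. TYRO3 lies at 7.22 to 11.4 FPKM, the other genes lie under 1 FPKM, and PROS1 has groups that do not overlap.

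In the gas control the order of mean levels was TYRO3, AXL, PROS1, MERTK and GAS6. TYRO3 exceeded AXL 20.8-fold (9.76 ± 2.24 against 0.469 ± 0.0404 FPKM; SD, n = 3) and AXL exceeded PROS1 1.63-fold, without overlap between the libraries. PROS1, MERTK and GAS6 overlapped with their neighbours among these 3 (0.288 ± 0.0752, 0.232 ± 0.062 and 0.203 ± 0.0711 FPKM; SD, n = 3). In dCAMP-treated cells the order was TYRO3, PROS1, AXL, GAS6 and MERTK. TYRO3 exceeded PROS1 12.8-fold (8.71 ± 0.541 against 0.679 ± 0.0725 FPKM), PROS1 exceeded AXL 1.62-fold and AXL exceeded GAS6 1.71-fold, again without overlap. GAS6 and MERTK (0.246 ± 0.0487 and 0.208 ± 0.083 FPKM; SD, n = 3) overlapped. The place of PROS1 in this order rests on the difference for which it was picked.

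Within a library, TYRO3 carried 94, 94 and 91.1% of the summed FPKM of the 3 receptors for gas 1, 2 and 3 against 93.8, 92.5 and 93.5% for dCAMP. AXL carried 3.49 to 6.08% and MERTK 1.26 to 2.78% over the 6 libraries. The mean share of TYRO3 was 93.1 ± 1.66% in gas and 93.3 ± 0.713% in dCAMP (SD, n = 3), a difference of 0.198 percentage points (two-sided exact permutation test, p = 1). The mean share in dCAMP minus that in gas was -0.134 points for AXL (exact p = 0.9) and -0.0646 points for MERTK (exact p = 0.8). The ratio of GAS6 to AXL was 0.663, 0.284 and 0.385 for gas against 0.805, 0.427 and 0.574 for dCAMP, a mean difference of 0.482 on the log2 scale (exact p = 0.4). With 3 libraries against 3 the smallest p is 0.1, and over these 4 tests all Benjamini-Hochberg adjusted p were 1 (exact permutation tests). Without gas 3 the differences in the TYRO3, AXL and MERTK shares all changed sign, to -0.76, 0.571 and 0.19 points. The sign also changed without dCAMP 1 for TYRO3 (-0.0818) and AXL (0.389), and without gas 1 (0.0329) or dCAMP 3 (0.405) for MERTK.

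The ligands were set against the receptors in the same way, without a test, since the sums hold PROS1. PROS1 and GAS6 together had 0.483, 0.466 and 0.525 FPKM for gas against 0.989, 0.787 and 1 FPKM for dCAMP. The 3 receptors together had 12.2, 11.3 and 7.92 FPKM in gas and 9.95, 9.13 and 8.94 FPKM in dCAMP. The ligand sum was thus 3.98, 4.12 and 6.62% of the receptor sum in gas and 9.94, 8.62 and 11.2% in dCAMP. PROS1 was 0.718, 2.27 and 1.83 times the level of GAS6 in the gas libraries, below it only in gas 1, and 2.54, 3.14 and 2.72 times for dCAMP. Against AXL, PROS1 was at 0.476, 0.645 and 0.705 times its level in gas and at 2.04, 1.34 and 1.56 times in dCAMP.

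The groups were then compared gene by gene on the counts, over all genes tested. In bulk RNA, fewer cells that express a gene and less RNA per cell cannot be told apart. PROS1 lies on chromosome 33 at 1628074 to 1691441 (gene ID 478529), in the build CanFam3.1 of the deposited files, and had 38, 70 and 75 counts for gas against 136, 104 and 135 counts for dCAMP. Every dCAMP library was above every gas library also when scaled to CPM, counts scaled to library size, at 2.43 to 2.99 against 0.821 to 1.41 CPM. Over all genes tested, 19.0% had groups without overlap in CPM with dCAMP higher and 20.9% with dCAMP lower, and nothing is read from PROS1 belonging to the former, since it was picked on this contrast. The fold change was 2.29 (1.19 ± 0.321 against 2.78 ± 0.31 CPM; SD, n = 3).

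Gas 1 lay farthest from the dCAMP mean for PROS1. The log2 ratio of CPM to the dCAMP mean was -1.76 in gas 1, -1.07 in gas 2 and -0.98 in gas 3. Gas 2 and gas 3 had nearly the same PROS1 level, although they lay apart on the first principal component. The log2 fold change of PROS1 was 1.20 with all libraries, 0.98 without gas 1 and 1.29 without gas 3. Chi-square per degree of freedom of the PROS1 counts, near 1 where spread is counting error alone, was 4.14 among the gas libraries and 1.51 among the dCAMP libraries.

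Of the 4 partners of PROS1, 0 had an adjusted p under 0.05 in edgeR's quasi-likelihood test, as 0% of all genes tested did (0 genes, against 3040 at an unadjusted p under 0.05 and 295 at an adjusted p under 0.05 in DESeq2). At an unadjusted p under 0.05 there were also 0 of the 4, against 6.81% of all genes with dCAMP higher and 13.9% with dCAMP lower. The GAS6 gene, 607745 by its gene ID, lies at 60975196 to 61005869 on chromosome 22 and had 34, 21 and 27 counts in gas and 35, 22 and 33 counts in dCAMP. Its log2 fold change was 0.27 (standard error 0.30, 95% interval -0.44 to 0.99, adjusted p = 0.539 in edgeR), so that a change from 0.736-fold to 1.98-fold lies within the interval. Leaving out gas 1 gave 0.50 and leaving out gas 2 gave 0.07. The locus of GAS6 contains that of LOC111091730, a lncRNA gene at 60985915 to 60992403, which had 644, 658 and 574 counts in gas and 759, 673 and 755 counts in dCAMP, 18.9 to 31.3 times the counts of GAS6 in the same library. LOC111091730 itself had a log2 fold change of 0.39 (95% interval 0.09 to 0.69, adjusted p = 0.221 in edgeR). How reads on overlapping genes were divided is not given in the sources used here. The level and the fold change of GAS6 are uncertain to that extent.

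AXL (gene ID 484490; chromosome 1, 112699679 to 112727434), which is also known as a target gene of YAP, had 108, 150 and 146 counts in gas and 91, 107 and 119 counts in dCAMP. The log2 fold change of AXL was -0.16 (standard error 0.17, 95% interval -0.57 to 0.25, adjusted p = 0.53 in edgeR). Its chi-square per degree of freedom over the gas libraries was 1.37, the lowest of the 5 genes in that group. MERTK, gene ID 483060, lies at 36336787 to 36445796 on chromosome 17 and had 58, 40 and 51 counts in gas and 54, 44 and 22 counts in dCAMP. Its log2 fold change was -0.14 (standard error 0.36, 95% interval -1.01 to 0.72, adjusted p = 0.799 in edgeR), and it was 0.03 without gas 1 and 0.11 without dCAMP 3, with the opposite sign. Its interval was the widest of the 3 receptors and reaches from 0.498-fold to 1.65-fold.

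TYRO3, gene ID 487509, lies at 8571230 to 8602655 on chromosome 30 and had 2795, 2902 and 2056 counts in gas and 2352, 1947 and 2020 counts in dCAMP. The coefficient of variation of its CPM was 21.9% in gas and 7.04% in dCAMP, where it was the lowest of the 5 genes, against 1.97% and 2.18% from counting error alone. The log2 fold change was -0.13 (standard error 0.18, 95% interval -0.56 to 0.30, adjusted p = 0.625 in edgeR). Without gas 3 it was -0.35 (adjusted p = 0.0507), and without gas 1 it was -0.02 (adjusted p = 0.947). In the fit without gas 3, 15.0% of all genes had an adjusted p under 0.05 with dCAMP higher and 18.1% with dCAMP lower, and 0 of the 4 partners did. With limma's voom and sample quality weights, GAS6 (log2 fold change 0.74, adjusted p = 0.0139) and TYRO3 (-0.21, adjusted p = 0.0324) passed, and so did 32.6% of all genes with dCAMP higher and 28.2% with dCAMP lower. That fit weighted gas 2 at 6.73 and gas 1 and gas 3 at 0.115 and 0.192, so it compared the dCAMP libraries mainly with gas 2.

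**Figure D2:**
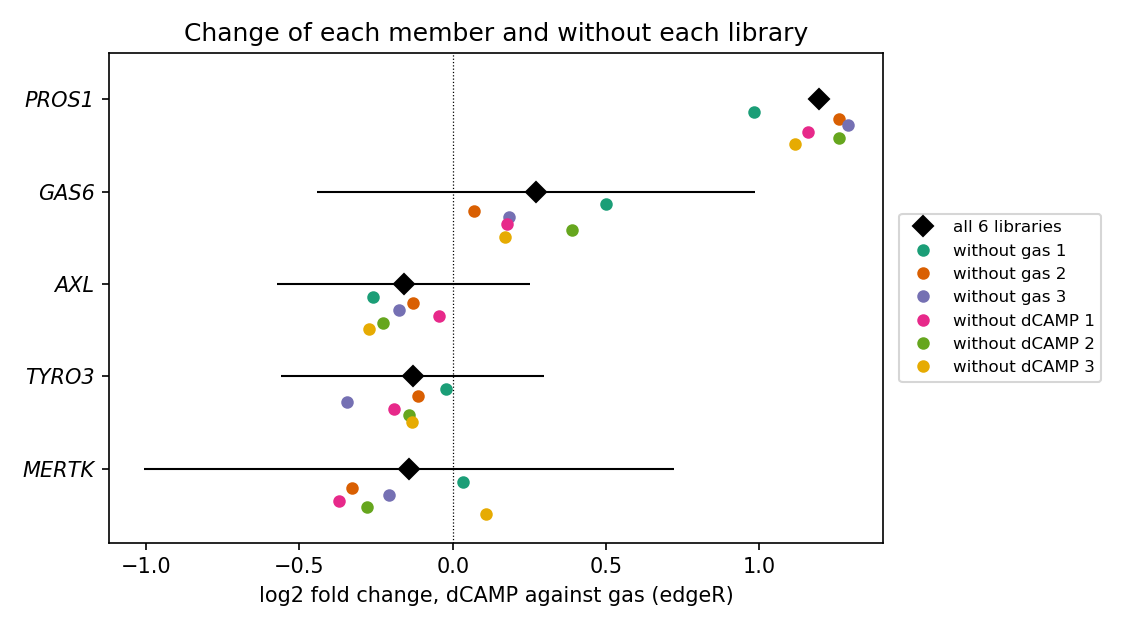
Log2 fold change of dCAMP against gas from edgeR for the 5 genes with all 6 libraries (black diamond) and without each library in turn (coloured points), with the 95% interval as a line for the 4 partners of PROS1. PROS1, which was picked on this contrast and has no interval, lies at 0.98 to 1.29 without 1 library, while GAS6, AXL, TYRO3 and MERTK have intervals that include 0.

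By transcript, PROS1, GAS6, AXL and MERTK each had 1 transcript in the deposited transcript table, of 3592, 2346, 4936 and 3735 bases. TYRO3 had 2, the X1 transcript of 4755 bases and the X2 transcript of 3753 bases (8571233 to 8602655 and 8571230 to 8598605 on chromosome 30). The X1 transcript held 2795, 2362 and 1891 counts in gas and 2333, 1947 and 1939 counts in dCAMP. The X2 transcript held 0, 540 and 165 counts in gas and 19, 0 and 81 counts in dCAMP, which is 0 to 22.4% of the gene's FPKM. In both groups at least 1 library was listed at 0 for X2 while others held counts. Since the authors' software divided reads between overlapping transcripts, these shares are estimates, and they were not tested.

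**Figure D3:**
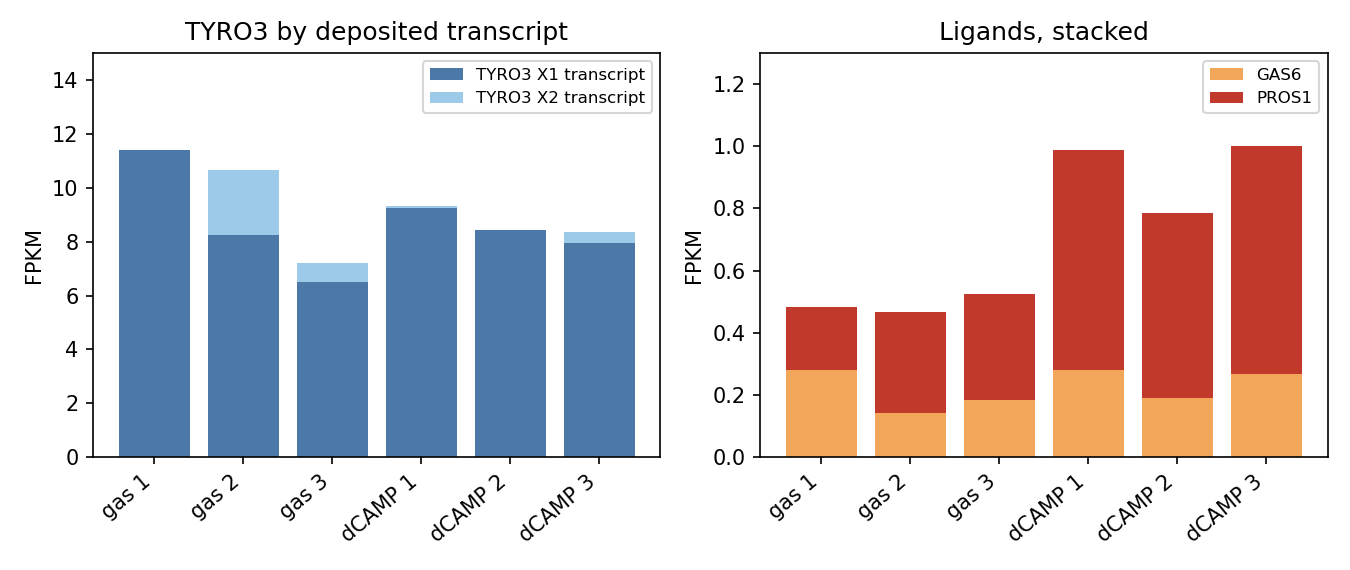
Left, FPKM of TYRO3 in each library, stacked by deposited transcript (X1 dark, X2 light), with X2 at 22.4% of the gene in gas 2 and at 0 in gas 1 and dCAMP 2. Right, FPKM of GAS6 and PROS1 stacked, with sums of 0.466 to 0.525 FPKM for gas against 0.787 to 1 FPKM for dCAMP.

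The genes whose level across the 6 libraries was most like that of each member were taken by Pearson's r of log2 CPM. The 6 points share their libraries and depths, and r is a description. For PROS1 they were LOC100683099 (NKG2D ligand 1, r = 0.998), EREG (epiregulin, an EGF receptor ligand, r = 0.997) and LOC100686099 (zinc finger protein 26, r = 0.997). Among the 14708 genes tested, 985 had r over 0.9 with PROS1. PROS1 was picked for its difference between these same libraries, so nothing is read from the genes most like it. For TYRO3 they were LOC111090253 (r = 0.996), MFSD10 (r = 0.99) and KRT42, a keratin gene (r = 0.989), with 369 genes over 0.9. For AXL they were BEGAIN (r = 0.991), LOC102153164 (r = 0.987) and CDK2, a cell cycle kinase (r = 0.967), with 17 genes over 0.9. For GAS6 they were ZFYVE26 (r = 0.977), FAM186B (r = 0.975) and AQP5, a water channel (r = 0.974), with 48 genes over 0.9, and for MERTK LOC111099004 (r = 0.99), CYFIP2 (r = 0.985) and MTF1, a metal-responsive transcription factor (r = 0.984), with 47. Some of these genes had few counts in a library: 16 to 24 for LOC111090253, 9 to 31 for BEGAIN, 15 to 29 for FAM186B and 5 to 13 for LOC111099004. Counting error is large at such counts, and nothing is read from their r. No member was among the 3 genes most like another member.

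Genes around these proteins were followed in 7 lists of 88 genes, of which 85 were found by symbol and 63 were tested. An adjusted p under 0.05 was reached by 0 of the 63 in edgeR, with 0.221 as the lowest value. At an unadjusted p under 0.05, 7 of the 63 (11.1%) were higher in dCAMP and 7 (11.1%) lower, against the 6.81% and 13.9% of all genes given above. Groups without overlap in CPM were found for 16 of the 63 with dCAMP higher (25.4%, against 19.0% of all genes) and for 10 with dCAMP lower (15.9%, against 20.9%). The median log2 fold change of the 63 genes was 0.09, and that of all genes tested 0.03. Without gas 3, 18 of 64 (28.1%) had an adjusted p under 0.05 with dCAMP higher and 10 (15.6%) with dCAMP lower, against 15.0% and 18.1% of all genes in the same fit. Values without gas 3 below come from that fit, and each is given beside the value without gas 1.

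The 5 genes of gamma-carboxylation and the vitamin K cycle, which prepare the Gla domain of both ligands, were all tested. VKORC1, the vitamin K epoxide reductase that warfarin inhibits, had 58.7, 55.7 and 48.4 FPKM in gas and 44.1, 44.8 and 42.6 FPKM in dCAMP. Each dCAMP library of VKORC1 was below each gas library, with a log2 fold change of -0.32 (adjusted p = 0.221 in edgeR), of -0.43 without gas 3 (adjusted p = 0.0231) and of -0.29 without gas 1 (adjusted p = 0.21). GGCX, the gamma-carboxylase itself, had 17.9 ± 1.03 FPKM in gas and 19.8 ± 0.411 in dCAMP (SD, n = 3), and CALU, a calcium-binding protein of the secretory pathway, 49.5 ± 18.1 and 65.4 ± 2.92. CALU overlapped between the groups, and GGCX overlapped in CPM but not in FPKM, with dCAMP higher (log2 fold change 0.22, adjusted p = 0.302 in edgeR).

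Of 13 listed scramblases and flippases, some of which expose phosphatidylserine or return it to the inner leaflet, 12 were found and 8 tested. At an unadjusted p under 0.05, against 6.81% of all genes with dCAMP higher and 13.9% lower, 1 of the 8 passed, with dCAMP higher. This was the flippase ATP8B1, with 4.42, 5.15 and 6.34 FPKM in gas and 7.56, 7.13 and 7.48 FPKM in dCAMP (log2 fold change 0.48, adjusted p = 0.221 in edgeR). TMEM30A, the subunit that flippases need to leave the endoplasmic reticulum, had 9.83, 19.1 and 38.7 FPKM in gas and 39.9, 45.1 and 43.4 FPKM in dCAMP. Its gas libraries differed among themselves more than gas 3 differed from the dCAMP libraries, and its log2 fold change was 0.92 (standard error 0.47), 0.54 without gas 1 (adjusted p = 0.266 in edgeR) and 1.53 without gas 3 (adjusted p = 0.0227). The flippase ATP11A (26.3 ± 2.65 and 28.1 ± 0.772 FPKM) and PLSCR3 (21.5 ± 3.37 and 19.7 ± 0.58 FPKM; SD, n = 3) overlapped between the groups.

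Among the 3 genes for shedding of the receptors, ADAM10 and ADAM17, the metalloproteases that cleave AXL and MERTK, had 26.2 ± 12.4 and 10.1 ± 2.25 FPKM in gas and 41.8 ± 1.7 and 11.6 ± 0.207 FPKM in dCAMP (SD, n = 3). TIMP3, an inhibitor of both proteases that is bound to the matrix, had 147, 126 and 117 FPKM in gas and 208, 179 and 206 FPKM in dCAMP. The dCAMP libraries of TIMP3 lay above all gas libraries, and the log2 fold change was 0.61 (standard error 0.11, adjusted p = 0.221 in edgeR), 0.66 without gas 1 (adjusted p = 0.196) and 0.50 without gas 3 (adjusted p = 0.0271). For ADAM10 the log2 fold change was 0.67 (standard error 0.34), which was 0.37 without gas 1 (adjusted p = 0.282 in edgeR) and 1.06 without gas 3 (adjusted p = 0.023).

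All 22 signalling partners of the receptors were tested. At an unadjusted p under 0.05, 1 of the 22 was higher in dCAMP and 3 were lower, against 6.81% and 13.9% of all genes. The kinase AKT1 had 130, 120 and 94.9 FPKM in gas and 85.1, 88.7 and 84.2 FPKM in dCAMP, and AKT2 had 39.2, 31.8 and 27.5 against 24.2, 25.7 and 22.7 FPKM. Both were lower in every dCAMP library than in any gas library, with log2 fold changes of -0.42 and -0.43 (adjusted p = 0.221 for each in edgeR), without gas 3 of -0.57 and -0.58 (adjusted p = 0.0203 and 0.0233), and without gas 1 of -0.35 and -0.33 (adjusted p = 0.206 and 0.208). The adaptors SHC1 (57.6 ± 10.4 and 50.5 ± 0.725 FPKM) and GRB2 (52.1 ± 6.16 and 46 ± 1.85 FPKM; SD, n = 3) had log2 fold changes of -0.18 and -0.17 (edgeR adjusted p = 0.349 and 0.298). The median log2 fold change of the list was -0.03.

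Of 21 genes for other bridging molecules and for engulfment, 13 were tested. At an unadjusted p under 0.05, 2 of the 13 were higher in dCAMP and 2 lower, against 6.81% and 13.9% of all genes. CD36, ADGRB1, STAB2, TIMD4, GULP1 and TULP1, all receptors, adaptors or bridging proteins of engulfment, had 0 counts in every library, which allows up to 3 counts in each. The galectin LGALS3 (390.6 ± 22.9 and 404 ± 12.5 FPKM), the small GTPase RAC1 (192.1 ± 16.2 and 211.2 ± 5.26 FPKM) and the scavenger receptor SCARB1 (115.6 ± 16.5 and 94.2 ± 4.18 FPKM; SD, n = 3) were the most abundant. ELMO1, which activates RAC1 downstream of engulfment receptors, had 121, 101 and 94 counts in gas and 71, 27 and 49 counts in dCAMP. The groups of ELMO1 did not overlap, and its log2 fold change was -0.93 (standard error 0.33, adjusted p = 0.226 in edgeR), -0.76 without gas 1 (adjusted p = 0.251) and -1.08 without gas 3 (adjusted p = 0.0704). SCARB1 had a log2 fold change of -0.29 (adjusted p = 0.227 in edgeR), -0.42 without gas 3 (adjusted p = 0.0259) and -0.21 without gas 1 (adjusted p = 0.229).

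Of 13 partners of protein S in coagulation control, 7 were tested, and PROC, F5, C4BPA and SERPINC1, which are known as liver or plasma products, were at 0 counts. F3, tissue factor, had 14.6, 18.9 and 21.5 FPKM in gas and 25.1, 26.7 and 25.6 FPKM in dCAMP, without overlap (log2 fold change 0.49, adjusted p = 0.223 in edgeR), 0.60 without gas 3 (adjusted p = 0.0291) and 0.32 without gas 1 (adjusted p = 0.201). TFPI2, an inhibitor related to TFPI, had 42.3 ± 7.22 FPKM in gas and 51.4 ± 1.5 in dCAMP, and PROCR, the receptor of protein C, 27.3 ± 4.12 and 26.6 ± 1.16 (SD, n = 3). PROCR overlapped between the groups, and TFPI2 overlapped in CPM but not in FPKM, with dCAMP higher (log2 fold change 0.28, adjusted p = 0.282 in edgeR). Of 11 other Gla-domain genes 9 were found and 5 tested, while F2, F7, F9 and PRRG3 were at 0 counts. The membrane protein gene PRRG4 had 12.6, 16.5 and 18.3 FPKM in gas and 24.1, 21.5 and 21.3 FPKM in dCAMP, again without overlap (log2 fold change 0.49, adjusted p = 0.223 in edgeR), 0.57 without gas 3 (adjusted p = 0.0377) and 0.32 without gas 1 (adjusted p = 0.208). PRRG2 had 16.2 ± 2.9 and 15.6 ± 0.753 FPKM and BGLAP, osteocalcin, 3.76 ± 0.483 and 3.78 ± 0.635 FPKM (SD, n = 3).

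**Figure D4:**
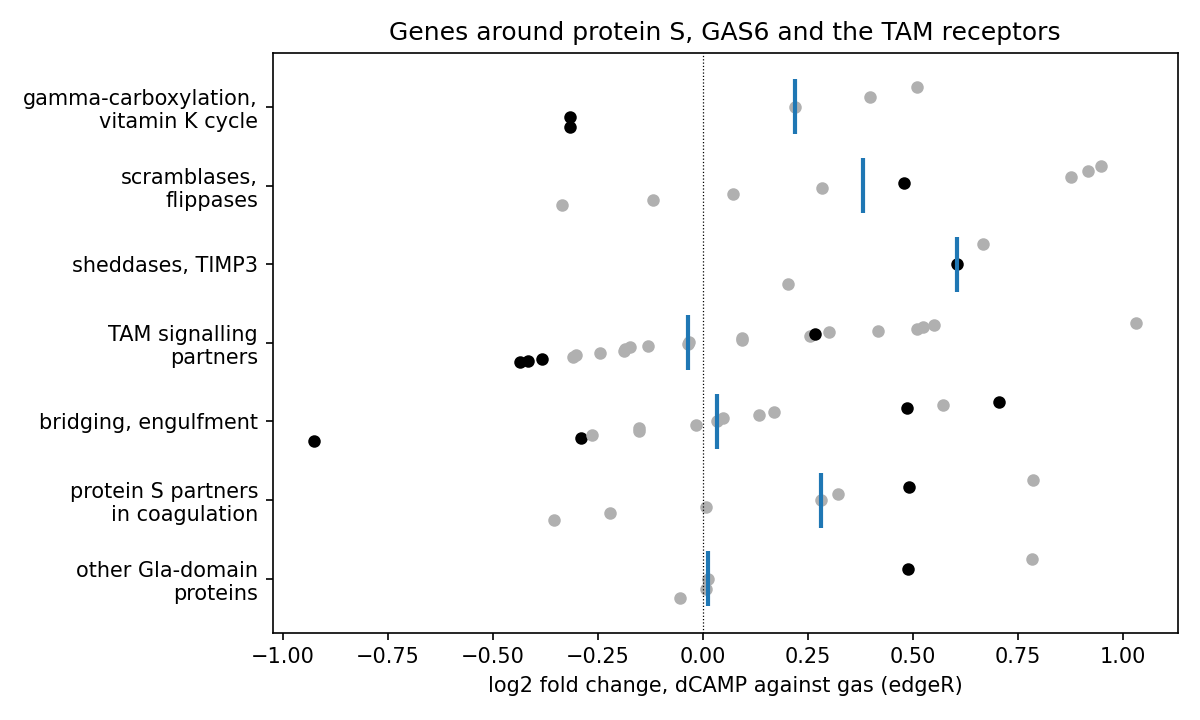
Log2 fold change of dCAMP against gas from edgeR for the 63 tested genes of the 7 lists, 1 point a gene, in black where the unadjusted p was under 0.05, with the median of each list as a blue line. The 7 black points on the right and the 7 on the left all had adjusted p of 0.221 or more.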

How the data were processed

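Reads of 3 gas and 3 dCAMP libraries (stranded mRNA kit) were processed by the authors with FastQC 0.11.7, Trimmomatic 0.38, HISAT2 2.1.0 on CanFam3.1 and StringTie 2.1.3b. The authors deposited whole-number read counts without normalization, FPKM values normalized for transcript length and mapped reads, and TPM values in 12 columns, which were not used. The annotation release and the strand setting are not given in the sources used here.

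The members and lists were chosen with earlier results of these data known. The 5 members were matched by symbol, and their gene IDs were checked in the reference table (UU_Cfam_GSD_1.0, names only). Counts were tested with edgeR 4.0.16 in R 4.3.3: TMM factors, filterByExpr, prior count 2, quasi-likelihood test, Benjamini-Hochberg adjustment over 14708 genes, calls at an adjusted p under 0.05. Standard errors were taken as the fold change (log2) over the root of F. Levels between genes are FPKM. Shares were compared by exact permutation over libraries. Named genes of each list are the 3 highest by mean FPKM and the largest change at an unadjusted p under 0.05. Others are named where a list count is small or they are at 0, and these were chosen after their values were seen. The result of 1 listed gene is not reported here. Alternatives used DESeq2 1.42.0, limma 3.58.1, other factors and filters, a lowess correction for transcript length (span 0.3), the replicate number as a block, and each library left out. The edgeR, DESeq2 and voom fits were run on simulated counts as a check of the code. The simulated libraries were independent and lacked the differences among the gas libraries, so they do not bear on how the fits differ here. Counts of 0 allow up to 3 counts, for counting error only.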

Additional observations from a re-analysis of the deposited data

How the results depend on the processing

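The log2 fold change of PROS1 (1.20) was 0.98 to 1.29 without 1 library and moved by more than the spread between replicates with 1 alternative, the log2 of FPKM plus 1, to 0.38, where the added 1 exceeds the gene's own FPKM. GAS6 (0.27) was 0.07 to 0.50, AXL (-0.16) -0.27 to -0.04, TYRO3 (-0.13) -0.35 to -0.02 and MERTK (-0.14) -0.37 to 0.11 without 1 library. With voom and sample quality weights GAS6 was 0.74 and TYRO3 -0.21, both past the threshold, and MERTK was 0.082, with the other sign. DESeq2 gave no adjusted p for GAS6 and MERTK. With the trend on transcript length removed AXL was -0.34 and TYRO3 -0.33.

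The number of genes with an adjusted p under 0.05 was 0 in edgeR, against 3040 at an unadjusted p under 0.05. It was 295 with DESeq2, 8944 with voom and sample quality weights, 3 when limma took FPKM plus 0.1 on the log2 scale, and 0 to 4953 without 1 library, with 1 without gas 1 and 4953 without gas 3. Listed genes with an unadjusted p under 0.05 numbered 14 of 63, and 49 of 63 with voom and sample quality weights. Without 1 library they numbered 4 of 63 (gas 2), 4 of 64 (dCAMP 3) and 5 of 65 (dCAMP 1 or dCAMP 2). They numbered 18 of 65 without gas 1 and 42 of 64 without gas 3. For the fits other than the main one, the share over all genes at an unadjusted p is not given here. At an adjusted p under 0.05, a stricter threshold, 32.6% of all genes passed with dCAMP higher and 28.2% lower with voom. At that threshold without gas 3 it was 15.0% and 18.1% of all genes, against 28.1% and 15.6% of the 64 listed genes. Nothing about the lists is read from these counts and shares. Without 1 library the differences in receptor share ranged from -0.76 to 0.689 points for TYRO3, -0.722 to 0.571 for AXL and -0.416 to 0.405 for MERTK, and the log2 ratio of GAS6 to AXL from 0.204 to 0.817. On the log2 of FPKM plus 1, 2 of the 3 genes most like PROS1 and MERTK were found again, and 1 of those most like GAS6, AXL and TYRO3. The cause was not tested where none is given.

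The replicate numbers are shared by the groups, and same-numbered libraries had correlations of 0.13, 0.024 and 0.048 between their deviations from the group means. Gas 3 and dCAMP 2 correlated better with each other (0.087) than with the library of their own number. With the replicate number as a block the log2 fold changes were 1.22 for PROS1, 0.28 for GAS6, -0.16 for AXL, -0.11 for TYRO3 and -0.19 for MERTK. In the block fit 0 genes passed, and 18 of the 63 listed genes had an unadjusted p under 0.05. The share over all genes at that threshold is not given for the block fit, so nothing is read from this count. As pairs, the mean differences in share and ratio are the same as above, with exact sign-flip p of 0.25 to 1, where 0.25 is the smallest that 3 pairs allow. The ratio of GAS6 to AXL, higher in dCAMP in 3 of 3 pairs, is at that limit. Counting error is large for GAS6 and MERTK, at 21 to 58 counts in a library, but their spread also exceeded it. The coefficient of variation of MERTK was 25% in gas and 40.1% in dCAMP, against 14.2% and 15.8% from counting error alone. For GAS6 it was 31.3% and 20%, against 19.1% and 18.3%.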
